A study of Mus musculus with 19 samples.

Results

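UDP-glucuronosyltransferases (UGTs) and cytosolic sulfotransferases (SULTs) of mouse liver were compared across control or MASH diet, with or without oral polyethylene (PE) microplastics. Members were the genes whose symbol names a UGT of families 1 to 3 or a SULT and whose mean reached 1 CPM (counts divided by the TMM-scaled library size) in at least 1 of the 4 groups. Of 55836 genes listed, 42 carried such a symbol and 25 were members, 17 UGTs and 8 SULTs. By subfamily, members were 7 of 9 Ugt1a, 1 of 3 Ugt2a, 7 of 7 Ugt2b, 2 of 2 Ugt3a, 5 of 6 Sult1, 1 of 9 Sult2, 1 of 1 Sult5 and 1 of 2 Sult6 symbols, with none of 2 Sult3 and 1 Sult4.

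Bulk liver RNA was sequenced from 19 libraries of wild-type male C57BL/6 mice that were 8 weeks old when obtained. Mice ate a control diet (CD) or a MASH diet rich in fat, fructose and cholesterol (MD) for 8 weeks and were gavaged daily with PE particles at 2 mg per mouse in dilute Tween, or with that vehicle (Veh) alone. There were 4 libraries from CD + Veh mice and 5 from each of MD + PE, MD + Veh and CD + PE mice, and every mouse had been gavaged with Tween. The extraction note in the labels speaks of 4 livers drawn at random, whereas 3 of the groups hold 5 libraries, and the n given here counts libraries. The design asks how diet and PE, alone and together, changed liver RNA, and adjusted p-values measure the spread between these libraries. In bulk tissue, fewer cells of a type and less RNA per cell cannot be told apart.

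Library totals ran from 10398820 to 15456729 estimated counts, so 1 CPM stood for roughly 10.4 to 15.5 counts. Every PE library was shallower than every vehicle library (largest PE total 12757617, smallest vehicle total 13406037), and the library numbers also separate PE from vehicle, so depth, library number and PE cannot be told apart. Of the marker lists, summed skeletal muscle genes stood apart in MD + Veh replicate 1 (2841 CPM, next highest library 377), summed Kupffer cell genes in CD + PE replicate 2 (569, next 249), and both summed bile duct and gallbladder genes (155, next 23.1) and summed intestinal epithelium genes (269.6, next 131) in MD + PE replicate 2. Summed hepatocyte markers were at 45837 to 90192 CPM in all 19 libraries. Exocrine pancreas genes summed to at most 3.77 CPM.

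UGTs sit in the membrane of the endoplasmic reticulum and join glucuronic acid, taken from UDP-glucuronate, to bilirubin, bile acids, steroids, thyroid hormone and many drugs. SULTs are cytosolic enzymes that transfer a sulfonate group from the donor PAPS to phenols, steroids and bile acids. Both reactions make their substrates more water soluble for export into bile or blood, and the liver is their main site. The Ugt1a genes form a single locus in which each gene has its own first exon, encoding the substrate-binding part of the protein, spliced to a common set of later exons.

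Coding sequence across the junction of the first coding exon with the common exons is shown because it is where Ugt1a transcripts become distinct. The last 30 bases of the first coding exon, here called the first exon, are in lower case. The first 20 bases of the common exon 2 are in capitals (GENCODE vM39 on GRCm39, plus strand). In the 6-exon transcript of Ugt1a6b a noncoding exon comes before its first coding exon. Exon 2 lies at chr1:88142766-88142897, and the first exons of the 9 Ugt1a genes end between 2172 bp (Ugt1a1) and 158707 bp (Ugt1a10) before it, with that of Ugt1a5 at chr1:88093707-88094625, 48140 bp before it.
Ugt1a1: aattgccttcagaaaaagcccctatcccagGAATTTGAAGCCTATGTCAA
Ugt1a9: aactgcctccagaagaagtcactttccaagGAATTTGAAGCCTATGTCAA
Ugt1a5: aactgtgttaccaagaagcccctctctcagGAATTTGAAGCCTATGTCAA
Ugt1a2: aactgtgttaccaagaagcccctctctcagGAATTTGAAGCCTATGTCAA
Ugt1a6a: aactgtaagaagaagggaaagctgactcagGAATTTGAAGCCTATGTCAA
Ugt1a6b: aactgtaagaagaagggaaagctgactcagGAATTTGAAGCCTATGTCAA
The capitals are the same in all 6. The lower-case stretch of Ugt1a5 equals that of Ugt1a2, and that of Ugt1a6a equals that of Ugt1a6b, so reads must reach further into the first exon to tell these pairs apart.

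Assignment of reads therefore rests on few bases for some members. Of the 31-base words in each gene's annotated transcript, 1.54% of Ugt1a6a, 10.9% of Ugt1a6b, 23.7% of Ugt1a9, 24.4% of Ugt1a5 and 28.5% of Ugt1a1 occur in no other gene. In the Ugt2b group the same share was 47.1% for Ugt2b38, 57.9% for Ugt2b5 and 65.6% for Ugt2b37, and 90.7% to 99.2% for the other 4. It was 100% for Sult1b1, Sult1d1, Sult1e1, Sult2a8 and Sult6b2. Values for Ugt1a6a and Ugt1a6b taken singly are uncertain, and their sum is given beside them.

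The 250 bases before the annotated start are shown for Ugt1a5 and Ugt1a9, the Ugt1a members called in at least 1 comparison, for Ugt1a1, the highest Ugt1a member, and for Ugt2b1, the Ugt2b member with the largest fold change among those called, each written on its own strand with motif matches in capitals.
Ugt1a5, chr1:88093457-88093706, plus strand: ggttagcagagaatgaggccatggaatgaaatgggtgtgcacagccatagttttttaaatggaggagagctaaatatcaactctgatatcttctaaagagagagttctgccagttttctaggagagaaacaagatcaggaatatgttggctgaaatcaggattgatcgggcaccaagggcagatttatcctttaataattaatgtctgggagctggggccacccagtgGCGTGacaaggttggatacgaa
Ugt1a9, chr1:87998200-87998449, plus strand: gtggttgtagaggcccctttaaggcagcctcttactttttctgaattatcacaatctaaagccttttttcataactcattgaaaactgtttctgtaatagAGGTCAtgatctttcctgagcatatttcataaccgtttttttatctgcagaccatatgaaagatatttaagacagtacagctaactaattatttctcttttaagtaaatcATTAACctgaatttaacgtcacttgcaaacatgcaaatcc
Ugt1a1, chr1:88139429-88139678, plus strand: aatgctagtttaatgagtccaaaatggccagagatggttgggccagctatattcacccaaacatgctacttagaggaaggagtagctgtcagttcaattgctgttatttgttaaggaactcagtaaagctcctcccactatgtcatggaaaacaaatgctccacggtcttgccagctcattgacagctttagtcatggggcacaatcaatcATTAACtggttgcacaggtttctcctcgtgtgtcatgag
Ugt2b1, chr5:87074390-87074639, minus strand: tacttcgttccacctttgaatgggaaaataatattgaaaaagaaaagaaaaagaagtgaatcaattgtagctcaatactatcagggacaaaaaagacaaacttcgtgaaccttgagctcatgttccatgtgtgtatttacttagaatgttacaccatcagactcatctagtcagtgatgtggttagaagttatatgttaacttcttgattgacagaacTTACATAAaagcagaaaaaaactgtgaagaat
Short motifs were searched on both strands. The HNF1 core GTTAAT matched in the Ugt1a9 and Ugt1a1 windows, 40 and 39 bases before the start, and in 6.28% of 21738 such windows of protein-coding genes. It had no match in the Ugt1a5 window, which held only the 5-letter core GCGTG of the xenobiotic response element, found in 31.2% of windows. Ugt2b1 held the D-box TTATGTAA, 32 bases before the start, a motif in 0.828% of windows, and Ugt1a9 also held the nuclear receptor hexamer AGGTCA, in 13.1%. The other motifs, without a match in these 4 windows, were the full HNF1 palindrome (0.0046% of windows), the DR1 (0.0368%) and DR4 (0%) repeats of AGGTCA, the STAT site TTCNNNGAA (7.69%), the E-box CACGTG (6.27%), the C/EBP site TTGCGCAA (0.166%), the HNF4 site CAAAGTCCA (0.373%) and the TATA box TATAAA (11.9%). The HNF1 palindrome contains its core, and both repeats contain the hexamer. A match describes letters and was not tested as a binding site.

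Levels between genes were compared per kilobase of annotated transcript. Averaged over the 4 group means, Sult2a8 (217 CPM per kb), Ugt2b5 (205), Ugt2b1 (161) and Sult1a1 (151) were the highest and together made up 48.5% of the members' summed level. Ugt2b34 (135), Ugt2b36 (122), Ugt1a1 (116) and Ugt3a1 (101) followed. At the low end, Ugt1a10 (0.654), Ugt2b37 (0.526), Sult1e1 (0.511) and Sult6b2 (0.451) were below 1 CPM per kb. The closest neighbours at the top differed by less than their spread over the 4 groups, with an SD of 30.1 for Sult2a8 and 14.2 for Ugt2b5.

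Of the 25 members, 21 reached 1 CPM in all 4 groups. Sult1e1 did so only in MD + Veh and Sult6b2 only in MD + PE. The members nearest the threshold were Ugt2b37, with a highest group mean of 1.31 CPM, and Sult1e1, with 2.01. Just outside it were Sult2a7, with a highest group mean of 0.887 CPM, Ugt1a2 with 0.649 and Sult2b1 with 0.600. Of the 17 symbols that were not members, 8 had 0 counts in every library. Sult2a1 to Sult2a6, a group with members known for higher levels in female than in male mouse liver, were among the symbols not reaching the threshold in these males, with at most 2 counts each over all libraries.

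**Figure D1:**
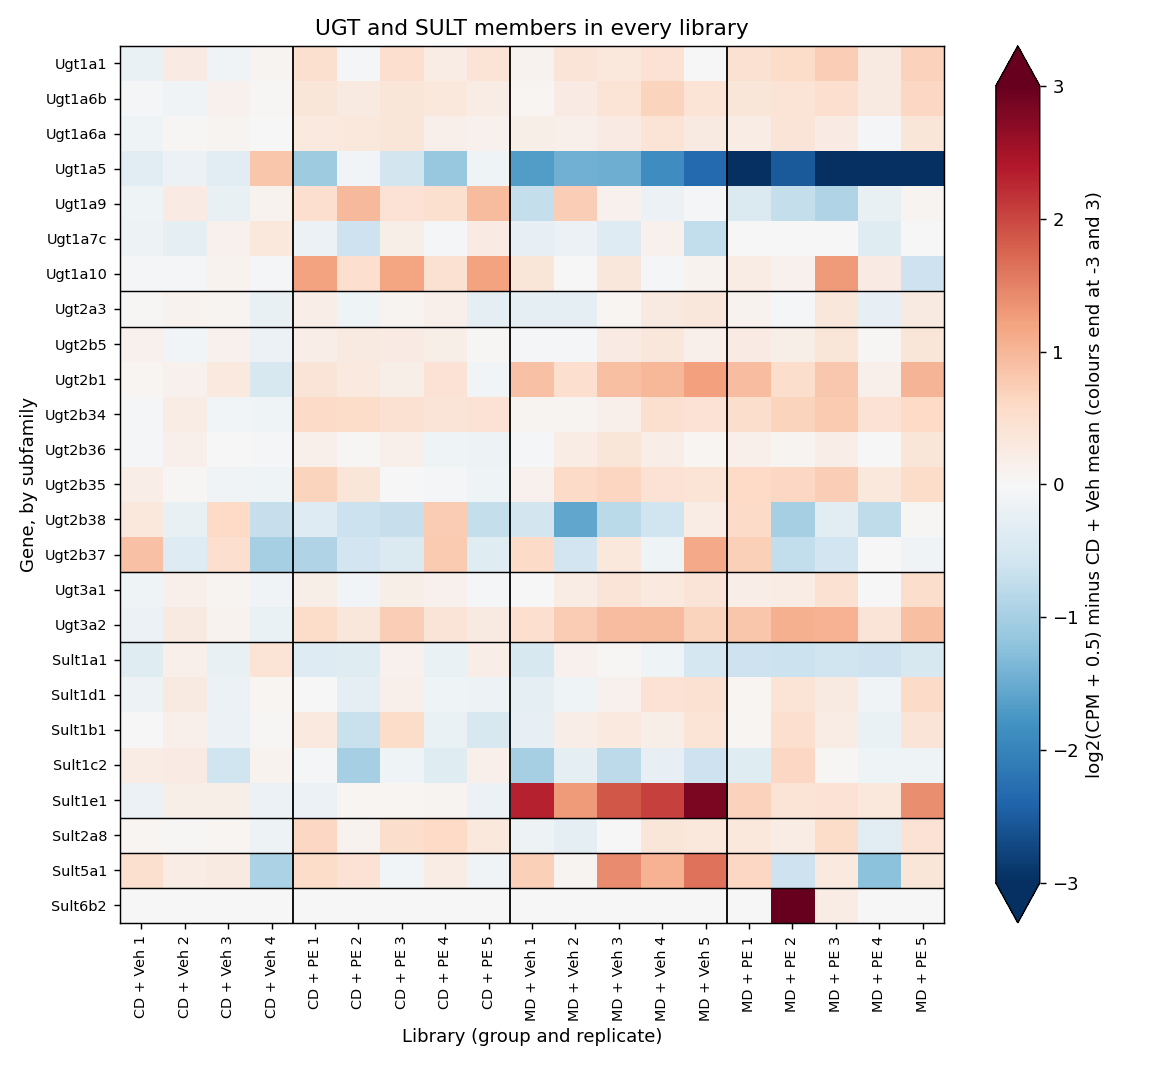
Each of the 25 members (rows, by subfamily) in each of the 19 libraries (columns), as log2(CPM + 0.5) minus the CD + Veh mean, with colours ending at -3 and 3. Ugt1a5 is below that mean in every MD library and lowest in MD + PE, Sult1e1 is above it in the 5 MD + Veh libraries, and Sult6b2 stands out in MD + PE replicate 2 alone.

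Differential expression was tested with edgeR's quasi-likelihood test over 13597 genes, with Benjamini-Hochberg adjustment, and a gene was called at an adjusted p under 0.05 with a log2 difference of 0.38 or more in either direction. Sult6b2 did not pass the filter on low counts, so 24 members were tested. Comparisons of MD + Veh and of CD + PE with CD + Veh share their control libraries, as do the others in pairs, so each is given with its own values. Called were 7 of the 24 tested members in at least 1 comparison, with 11 calls in all. Some of these calls were of Sult1e1, which met the 1 CPM rule through MD + Veh alone. The other 18 members, the untested Sult6b2 among them, were called in none. The share of all genes called in at least 1 comparison is not given, so these totals are not read as a result about members.

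With MD in vehicle-treated mice, 5 of 24 members were called (20.8%, against 10.4% of all genes tested). Sult1e1 met the 1 CPM rule through MD + Veh alone, so the rule favoured its call; among the 21 members at 1 CPM in all 4 groups, 4 were called (19.05%). Sult1e1, Ugt2b1, Ugt2b35 and Ugt3a2 rose, against 4.74% of all genes called higher, and Ugt1a5 fell, against 5.63% called lower. By subfamily, 2 of 7 Ugt2b, 1 of 2 Ugt3a and 1 of 5 Sult1 members rose and 1 of 7 Ugt1a members fell, and none of Ugt2a, Sult2 and Sult5 was called. The median log2 fold change of the 24 members was 0.21, and that of all genes -0.0042. The groups did not overlap for 5 of 24 members, against 16.2% of all genes, and 11 members had an unadjusted p under 0.05, against 28.6%.

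With PE on the control diet, Ugt2b34 was the 1 member called (4.17%, against 2.92% of all genes), and it rose, against 1.22% called higher, while none fell, against 1.7% called lower. The median log2 fold change was 0.11 for the members and 0.0064 for all genes. Groups did not overlap for 6 of 24 members (7.83% of all genes), namely Ugt2b34, Sult2a8, Ugt1a10, Ugt1a6a, Ugt1a6b and Ugt1a9, all with a higher CD + PE mean, and 5 of these 6 did not pass the adjusted threshold. An unadjusted p under 0.05 was found for 8 members, against 17.5% of all genes. With PE on the MASH diet, 2 of 24 members were called (8.33%, against 1.08% of all genes), and both, Ugt1a5 and Sult1e1, fell, against 0.934% called lower, while none rose, against 0.147% called higher. MD + Veh, the higher group here, is the one through which Sult1e1 met the rule, and among the 21 members at 1 CPM in all 4 groups 1 was called (4.76%). Groups did not overlap for 1 member, Ugt1a5, against 3.57% of all genes, and 7 members had an unadjusted p under 0.05, against 15.7%.

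With MD in PE-treated mice, 3 of 24 members were called (12.5%, against 4.61% of all genes). Among the 21 members at 1 CPM in all 4 groups, which leave out Sult1e1, 2 were called (9.52%). Sult1e1 rose, against 1.69% called higher, and Ugt1a5 and Ugt1a9 fell, against 2.92% called lower. Groups did not overlap for 4 of 24 members, against 6.18% of all genes, and 10 had an unadjusted p under 0.05, against 21.7%. For the difference between the PE effects on the diets (the interaction), edgeR called 0 of 24 members (0.00735% of all genes, 1 gene), 5 members had an unadjusted p under 0.05 (8.77% of all genes), and DESeq2 also called 0. These 5 were Sult1c2, Sult5a1, Ugt1a5, Ugt1a6a and Ugt1a9, so a PE effect that differed between the diets was not shown for any member.

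**Figure D2:**
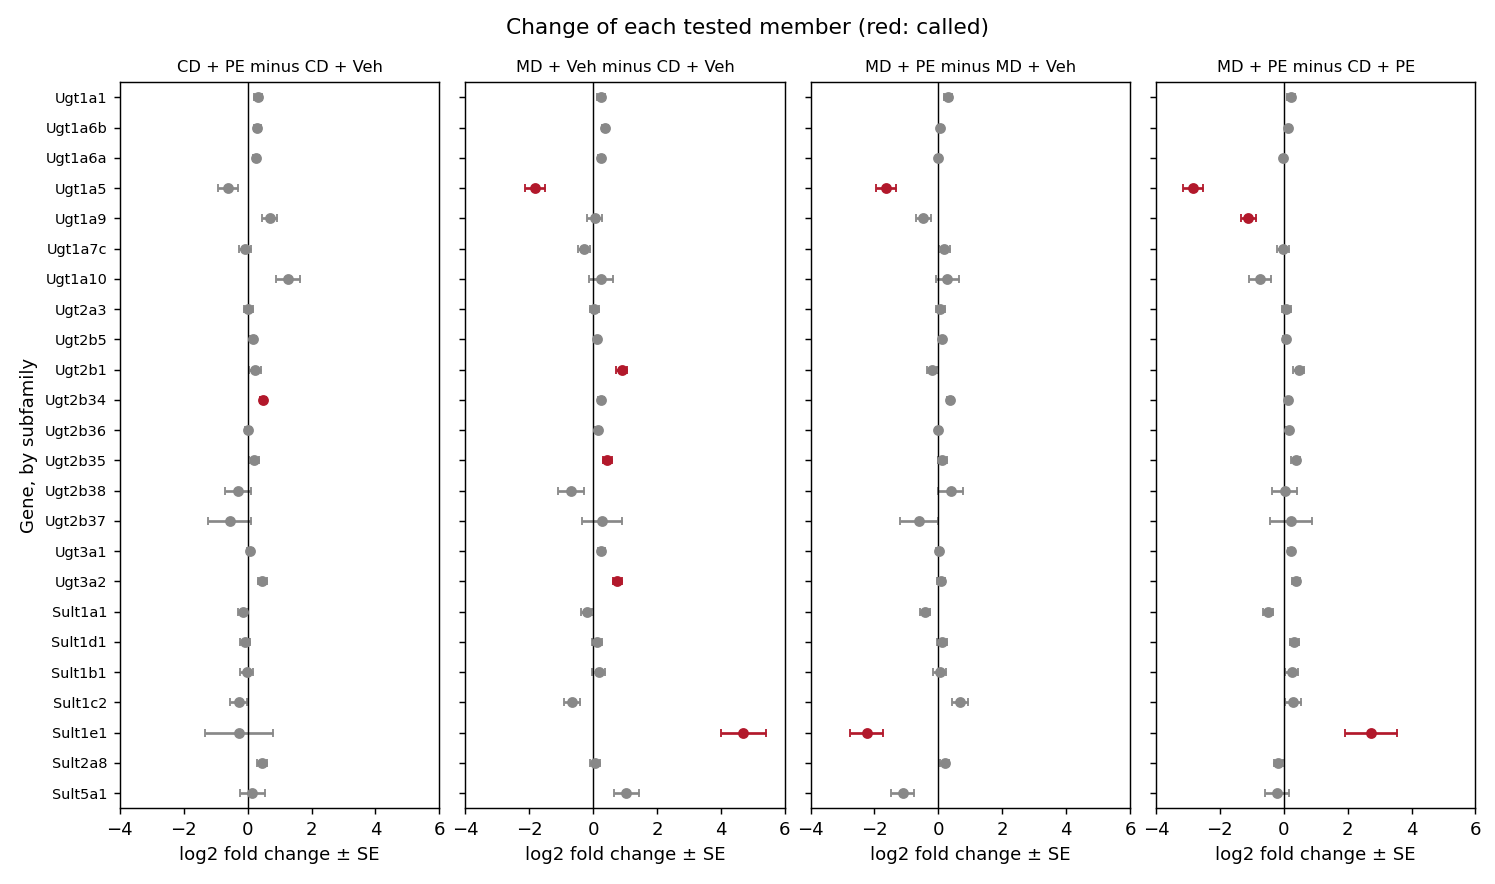
Log2 fold change with its SE for the 24 tested members in the 4 pairwise comparisons, with called members in red. Ugt1a5 lies left of 0 in all 4 panels and is called in 3, and Sult1e1 has the widest error bars in the 3 panels other than MD + PE against MD + Veh, where Ugt2b37 has.

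The Ugt1a members glucuronidate bilirubin, phenols and many drugs. Ugt1a5 was measured at 92.8, 102, 90.8 and 208 CPM in CD + Veh and at 55.3, 109, 78.8, 52.7 and 106 in CD + PE. In MD + Veh it was at 36.1, 42.2, 41.8, 31.3 and 22.6, and in MD + PE at 12.1, 19.8, 6.78, 10.5 and 6.64. CD + Veh and CD + PE overlapped, every MD + Veh library lay below every CD library, and every MD + PE library lay below every MD + Veh library.

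Group means of Ugt1a5 were 123.4 ± 56.6 CPM (SD, n = 4) in CD + Veh and 80.4 ± 26.9 (SD, n = 5) in CD + PE, with 34.8 ± 8.16 (SD, n = 5) for MD + Veh and 11.2 ± 5.37 (SD, n = 5) for MD + PE. It fell by 1.82 ± 0.31 (log2, SE) in MD + Veh against CD + Veh (edgeR adjusted p = 0.000624), by 1.64 ± 0.32 in MD + PE against MD + Veh (0.0126) and by 2.85 ± 0.32 in MD + PE against CD + PE (1.18e-05). The log2 difference of CD + PE against CD + Veh was -0.62 ± 0.31 (edgeR adjusted p = 0.312), and the interaction -1.02 ± 0.44 (0.523). Per kilobase, Ugt1a5 stood in place 11 of 25 in CD + Veh, 15 in CD + PE and MD + Veh, and 18 in MD + PE. Its MD + PE call was lost, at -1.27 (edgeR adjusted p = 0.266), when the division between library numbers 45 and 46, which splits MD + Veh replicates 1 to 3 from the rest of MD + Veh, entered as a covariate. MD + Veh replicates 4 and 5, on the same side of the division as MD + PE, were the lowest of MD + Veh at 31.3 and 22.6 CPM. The MD + PE libraries reached at most 19.8. Library number also separates those replicates from MD + PE, so library number and PE cannot be told apart there.

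Ugt1a5 took 18.3% ± 5.97 (SD, n = 4) of the CPM assigned to Ugt1a members in CD + Veh and 10.8% ± 3.73 (n = 5) in CD + PE, with 5.18% ± 1.14 (n = 5) for MD + Veh and 1.55% ± 0.754 (n = 5) for MD + PE. The summed Ugt1a level moved less, with means of 658 CPM in CD + Veh and 745 in CD + PE, with 673 for MD + Veh and 734 for MD + PE, and the libraries overlapped in each pairwise comparison. Without Ugt1a5 these means were 535, 664, 638 and 723 CPM.

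**Figure D3:**
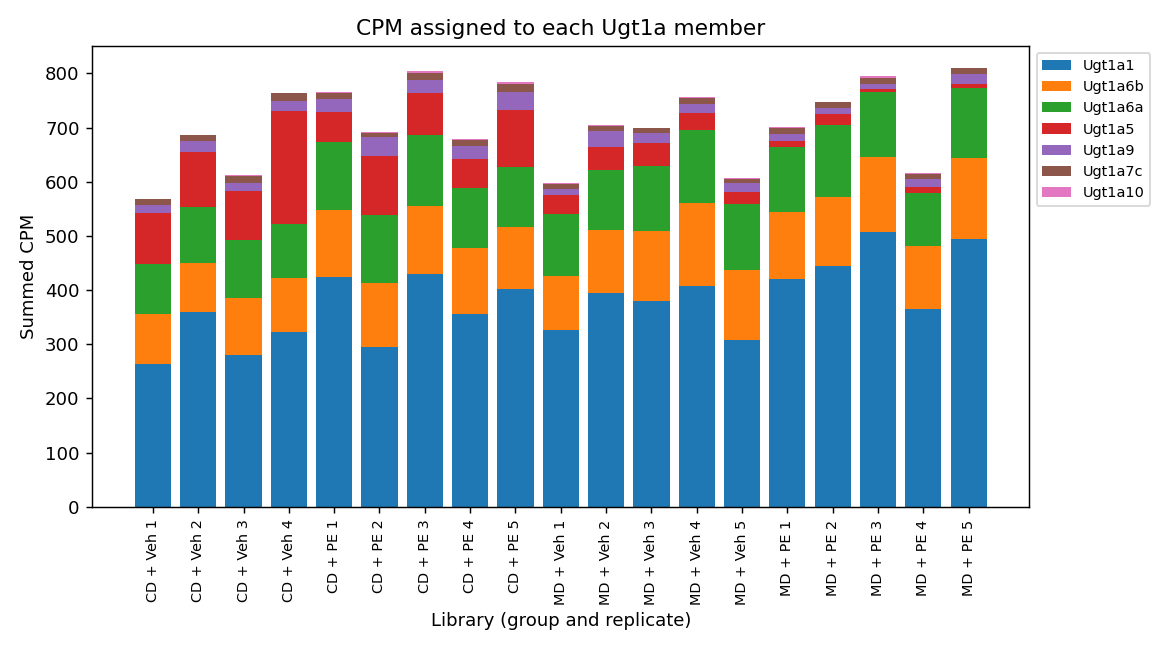
CPM assigned to each of the 7 Ugt1a members, stacked, in each of the 19 libraries. Ugt1a1 fills the largest band, and the Ugt1a5 band narrows from a mean of 123.4 CPM in CD + Veh to 11.2 CPM in MD + PE while the bar heights overlap between groups.

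Ugt1a9, which handles phenols, was at 15.9, 20.8, 14.9 and 18.7 CPM in CD + Veh and at 25.1, 34.6, 23.6, 24.6 and 34.3 in CD + PE. It was at 10.4, 29.5, 19.2, 15.4 and 16.6 in MD + Veh and at 12.8, 10.4, 9.04, 15.0 and 18.5 in MD + PE. All CD + PE libraries lay above all CD + Veh and all MD + PE libraries, and MD + Veh overlapped every group. It fell by 1.11 ± 0.23 (log2, SE) in MD + PE against CD + PE (edgeR adjusted p = 0.00510). The difference of CD + PE against CD + Veh was 0.69 ± 0.24 (0.116 by edgeR, 0.0485 by DESeq2), and that of MD + PE against MD + Veh was -0.47 ± 0.23 (0.326). The interaction was -1.16 ± 0.33 with an unadjusted p of 0.00224 across all 19 libraries in edgeR's fit, an edgeR adjusted p of 0.249 and a DESeq2 adjusted p of 0.0684.

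Ugt1a1, the bilirubin UGT and the highest Ugt1a member, was at 263, 359, 280 and 322 CPM in CD + Veh and 424, 295, 430, 356 and 402 in CD + PE, with 326, 395, 380, 408 and 308 for MD + Veh and 421, 444, 508, 365 and 494 for MD + PE. Its log2 differences were 0.32 ± 0.13 for PE on CD, 0.25 ± 0.13 for MD and 0.30 ± 0.12 for PE on MD, with edgeR adjusted p of 0.181, 0.207 and 0.224, and the groups of each pair overlapped.

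Ugt1a6a and Ugt1a6b, UGTs of planar phenols, summed to 198 ± 11.1 CPM (SD, n = 4) in CD + Veh and 241 ± 12.2 (n = 5) in CD + PE, with 246 ± 28.2 (n = 5) for MD + Veh and 251 ± 23.7 (n = 5) for MD + PE. All CD + PE and MD + Veh sums lay above all CD + Veh sums. Taken singly, Ugt1a6b had an edgeR adjusted p of 0.0138 in MD + Veh against CD + Veh, with a log2 difference of 0.373 that missed the fold minimum. Ugt1a7c ran from 6.72 to 14.4 CPM over the libraries, and Ugt1a10 from 0.449 to 3.04. Ugt1a10 had a CD + PE mean of 2.34 CPM against 0.970 in CD + Veh (log2 1.26 ± 0.38, edgeR adjusted p = 0.0688), from 15 to 35 counts a library in CD + PE and 13 to 16 in CD + Veh.

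**Figure D4:**
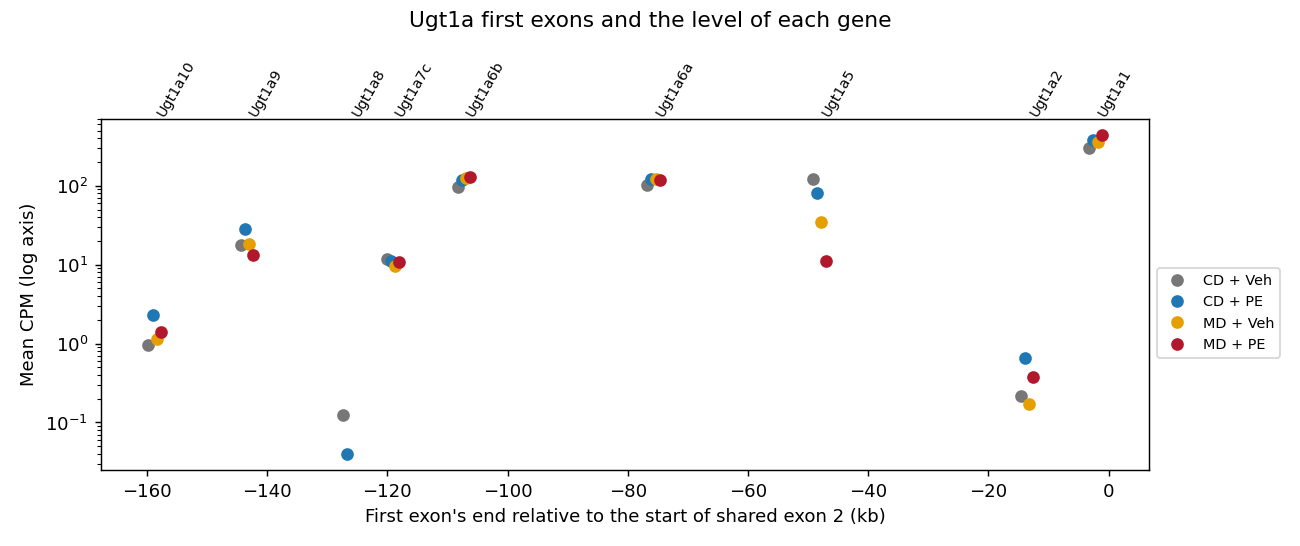
Group mean CPM (log axis) of the 9 Ugt1a genes, placed by the distance in kb from the end of the first exon to the start of the common exon 2, with group means of 0 not drawn. The 4 groups lie apart for Ugt1a5 and close together for Ugt1a6a, Ugt1a6b and Ugt1a1, and Ugt1a2 and Ugt1a8 are below 1 CPM.

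The Ugt2b enzymes glucuronidate steroids, bile acids and drugs, and 6 of the 7 members had a positive log2 difference with MD in vehicle-treated mice. Ugt2b1 was at 298, 316, 352 and 205 CPM in CD + Veh and at 530, 406, 537, 573 and 679 in MD + Veh. In CD + PE it was at 377, 355, 326, 388 and 271, and in MD + PE at 546, 412, 507, 320 and 582. Every MD + Veh library lay above every CD library, whereas MD + PE overlapped CD + PE. It rose by 0.90 ± 0.18 (log2, SE) in MD + Veh (edgeR adjusted p = 0.00224), a 1.86-fold change, and per kilobase moved from place 5 of 25 in CD + Veh to place 1 in MD + Veh. In MD + PE against CD + PE the difference was 0.46 ± 0.17 (adjusted p of 0.104 by edgeR and 0.0436 by DESeq2), and edgeR called it without MD + PE replicate 4 (0.59, adjusted p = 0.0337).

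Ugt2b34 was at 318, 380, 305 and 298 CPM in CD + Veh and at 479, 474, 445, 425 and 440 in CD + PE. In MD + Veh it was at 342, 340, 361, 452 and 438, and in MD + PE at 470, 510, 558, 438 and 490. All CD + PE libraries lay above all CD + Veh libraries, and MD + PE overlapped MD + Veh. It rose by 0.48 ± 0.10 (log2, SE) in CD + PE (edgeR adjusted p = 0.0109). Its difference in MD + PE against MD + Veh was 0.35 ± 0.09 (0.0627 by edgeR). DESeq2 gave 0.36 with an adjusted p of 0.00853, which missed the fold minimum. EdgeR called that difference without MD + Veh replicate 4 (0.41, adjusted p = 0.0258) or replicate 5 (0.40, 0.0375). With the division of library numbers as a covariate the CD + PE difference was 0.12 (edgeR adjusted p = 0.762), and the CD + PE call was lost. All CD + Veh libraries lay before that division and all CD + PE libraries after it. Only MD + Veh had libraries on both sides, so the covariate was estimated within MD + Veh alone. It cannot tell library number from PE on CD.

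Ugt2b35 was at 121, 108, 97.2 and 95.5 CPM in CD + Veh and at 115, 157, 165, 141 and 140 in MD + Veh, with 1 MD + Veh library inside the CD + Veh range. It rose by 0.44 ± 0.14 (log2, SE; edgeR adjusted p = 0.0446). The call was lost, at adjusted p of 0.0520 to 0.118, without CD + Veh replicate 2, 3 or 4, without MD + Veh replicate 2, 3, 4 or 5, or without MD + PE replicate 1, 2 or 5. It was also lost without a filter on low counts (edgeR adjusted p = 0.0600) and with the split of library numbers between 45 and 46 as a covariate (0.0651). In CD + PE it ran from 96.4 to 167 CPM and in MD + PE from 132 to 177.

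Ugt2b5, the highest Ugt2b member, was at 503, 434, 502 and 407 CPM in CD + Veh and 527, 557, 546, 518 and 470 in CD + PE, with 452, 451, 543, 579 and 514 for MD + Veh and 549, 523, 587, 472 and 593 for MD + PE. Its 4 pairwise log2 differences were 0.06 to 0.18, none called. Ugt2b36 ran from 311 to 446 CPM, Ugt2b38 from 2.66 to 15.3 and Ugt2b37 from 0.202 to 2.55, and none of these 3 was called. Summed over the 7 members, Ugt2b reached 1541 ± 134 CPM (SD, n = 4) for CD + Veh, 1797 ± 131 (n = 5) in CD + PE, 1977 ± 190 (n = 5) in MD + Veh and 2064 ± 226 (n = 5) in MD + PE, and every MD + Veh sum lay above every CD + Veh sum.

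Ugt2a3, a bile acid UGT of liver and intestine and the 1 member of its subfamily, was at 179, 189, 185 and 151 CPM in CD + Veh and 203, 162, 185, 194 and 146 in CD + PE, with 143, 146, 183, 210 and 221 for MD + Veh and 189, 172, 223, 147 and 212 for MD + PE. Its group means lay between 176 and 189 CPM, closer together than the libraries within any group.

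The Ugt3a enzymes use UDP-sugars other than UDP-glucuronate. Ugt3a2 was at 38.1, 52, 46.4 and 37.4 CPM in CD + Veh and at 61.5, 72.9, 81.6, 84.2 and 68.9 in MD + Veh, with no overlap. It was at 63.0, 55.1, 72.7, 56.5 and 51.7 in CD + PE and at 76.9, 90.02, 88.6, 56.6 and 80.5 in MD + PE. It rose by 0.76 ± 0.14 (log2, SE) in MD + Veh (edgeR adjusted p = 0.00106). The difference of CD + PE against CD + Veh was 0.46 ± 0.14 (0.0723 by edgeR, 0.0238 by DESeq2), that of MD + PE against CD + PE 0.39 ± 0.13 (0.0762 by edgeR, 0.0325 by DESeq2) and that of MD + PE against MD + Veh 0.09 ± 0.13 (0.807 by edgeR). Ugt3a1, the higher of the pair, was at 192, 231, 221 and 192 CPM in CD + Veh and 237, 197, 234, 229 and 202 in CD + PE, with 211, 243, 272, 257 and 273 for MD + Veh and 241, 245, 285, 212 and 301 for MD + PE, with a log2 difference of 0.26 ± 0.10 for MD (edgeR adjusted p = 0.0962).

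**Figure D5:**
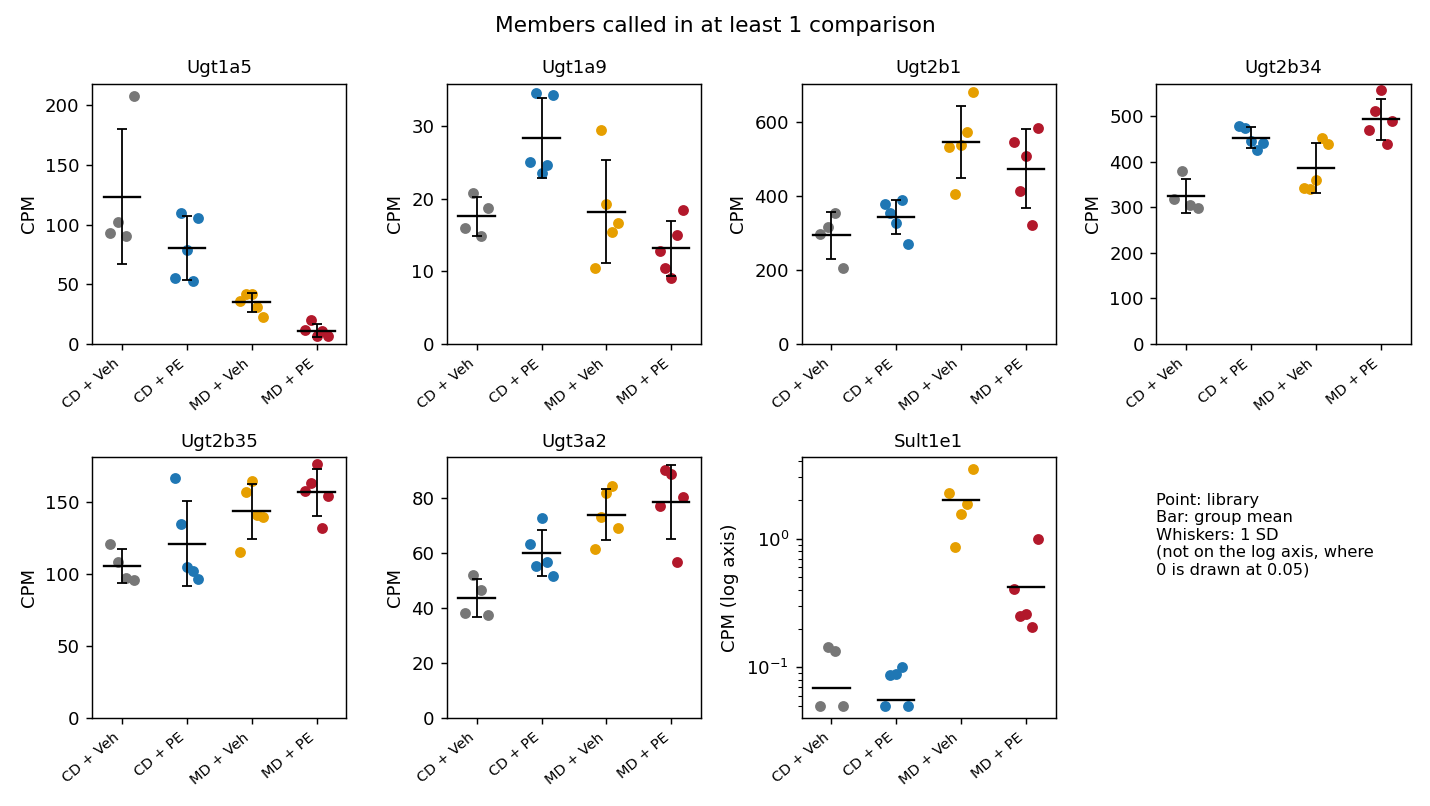
CPM in every library of the 7 members called in at least 1 comparison, by group, with the group mean and 1 SD (Sult1e1 on a log axis without SD, where 0 is drawn at 0.05). Ugt1a5 falls from group to group in the order drawn, Ugt2b1, Ugt2b35 and Ugt3a2 have higher means in both MD groups, and Sult1e1 is highest in MD + Veh.

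Sult1e1, the oestrogen sulfotransferase, had few counts. It met the 1 CPM rule through MD + Veh alone, so the rule favoured its differences from that group. There were 0, 2, 2 and 0 counts in CD + Veh and 0, 1, 1, 1 and 0 in CD + PE, with 36, 14, 23, 24 and 45 for MD + Veh and 5, 3, 3, 3 and 11 for MD + PE. As CPM, MD + Veh ran from 0.867 to 3.48 and MD + PE from 0.206 to 0.988. Every MD library lay above every CD library, and the highest MD + PE library overlapped the lowest MD + Veh library.

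Pooling counts by group, Sult1e1 was 29.3-fold higher in MD + Veh than in CD + Veh (142 against 4 counts; exact 95% interval 11.2 to 109, counting error only) and 7.45-fold higher in MD + PE than in CD + PE (25 against 3 counts; 2.27 to 38.5). It was 4.81-fold lower in MD + PE than in MD + Veh (3.13 to 7.69). The fitted log2 changes were 4.71 ± 0.70, 2.72 ± 0.81 and -2.24 ± 0.51, with edgeR adjusted p of 0.000162, 0.0464 and 0.0340.

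The MD call of Sult1e1 in vehicle-treated mice, which the 1 CPM rule favoured, held without any single library, at log2 4.32 to 5.23. The other 2 calls did not. The fall in MD + PE against MD + Veh was lost, at edgeR adjusted p of 0.0510 to 0.104, without MD + Veh replicate 1, 3 or 5 or MD + PE replicate 1, 2, 3 or 4. That fall was also lost without a filter on low counts (edgeR adjusted p = 0.0623) and in the 2-group fit (0.0565). The same held with the division of library numbers as a covariate (0.0733), and without MD + Veh replicate 1 and MD + PE replicate 2 together (0.143). The rise in MD + PE against CD + PE was lost, at 0.0510 to 0.134, without CD + PE replicate 1, 3, 4 or 5, MD + Veh replicate 1, 3 or 4, or MD + PE replicate 1, 2, 3 or 5. That rise was also lost after thinning to equal depth (edgeR adjusted p = 0.0778), without a filter on low counts (0.0696) and with a replicate block (0.0617). Leaving out MD + Veh replicate 1 and MD + PE replicate 2 together ended it as well (0.0656).

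Sult1a1, the main phenol sulfotransferase, was at 175, 249, 193 and 299.9 CPM in CD + Veh and 171, 175, 245, 194 and 257 in CD + PE, with 161, 245, 230, 206 and 155 for MD + Veh and 145, 143, 147, 145 and 161 for MD + PE. All MD + PE libraries lay below all CD + PE libraries, and the MD + PE SD, 7.30 CPM, was the smallest of the 4 groups. The log2 difference was -0.49 ± 0.15 in MD + PE against CD + PE (0.0619 by edgeR, 0.0363 by DESeq2) and -0.43 ± 0.15 against MD + Veh (edgeR adjusted p = 0.174). Sult1d1 ran from 86.9 to 159 CPM, Sult1b1, a thyroid hormone sulfotransferase, from 11.6 to 27.3, and Sult1c2 from 2.98 to 10.2, and none of the 3 was called. The highest Sult1c2 value was in MD + PE replicate 2.

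Sult2a8, a hepatic bile acid sulfotransferase and the 1 Sult2 member, was at 408, 403, 413 and 358 CPM in CD + Veh and 605, 423, 566, 596 and 489 in CD + PE, with 355, 330, 397, 507 and 493 for MD + Veh and 493, 462, 579, 316 and 530 for MD + PE. All CD + PE libraries lay above all CD + Veh libraries, at a log2 difference of 0.44 ± 0.16 (edgeR adjusted p = 0.134). Sult5a1, whose substrates are not well known, was at 6.47, 5.30, 5.50 and 2.09 CPM in CD + Veh and 6.89, 6.23, 4.24, 5.32 and 4.15 in CD + PE, with 7.73, 4.83, 13.0, 9.75 and 14.9 for MD + Veh and 7.23, 2.78, 5.65, 1.65 and 5.93 for MD + PE. Its log2 differences were 1.05 ± 0.38 for MD in vehicle-treated mice (0.0756 by edgeR, 0.0336 by DESeq2) and -1.11 ± 0.36 for PE on MD (edgeR adjusted p = 0.127), and the groups of both pairs overlapped.

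Sult6b2 rested on 1 library. It had 157 counts (13.2 CPM) in MD + PE replicate 2, 1 count in MD + PE replicate 3 and 0 in the other libraries. The same library was the highest of all in the epithelial markers Krt19 (58.7 CPM, next highest 8.17), Cftr (33.8, next 1.13), Epcam (29.2, next 3.50), Muc13 (41.01, next 0.609) and Krt20 (33.4, next 0.522), and in Sult2b1 (2.61, next 0.332). Their part in the Sult6b2 value was not tested.

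Among the 4 genes of UDP-glucuronate supply, 2 rose with MD in vehicle-treated mice: Ugdh, which makes UDP-glucuronate (log2 0.42 ± 0.10, edgeR adjusted p = 0.00592), and Slc35b1, a transporter of the endoplasmic reticulum (0.42 ± 0.12, 0.0209). Ugdh also rose in MD + PE against CD + PE (0.39 ± 0.09, 0.0127), and none of the 4 was called in either PE comparison. Of the 6 genes of PAPS supply and recycling, Papss2, a PAPS synthase, fell with MD in vehicle-treated mice (-0.54 ± 0.17, 0.0409), while Papss1, the other synthase, and Bpnt1, which degrades the spent donor, rose in MD + PE against CD + PE (0.51 ± 0.12, 0.0117 and 0.39 ± 0.08, 0.00530). Of the 5 deconjugating enzymes, Arsb, a lysosomal sulfatase, rose in MD + PE against CD + PE (0.44 ± 0.07, 0.000675). In both PE comparisons edgeR called no gene of the PAPS and deconjugation lists.

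Of 14 regulator genes, transcription factors known to act on conjugation genes plus Keap1, which holds the factor Nrf2 in check, 3 fell with MD in vehicle-treated mice by edgeR: Nr1h4, the bile acid receptor FXR (-0.53 ± 0.10, adjusted p = 0.00108), and the clock output factors Dbp (-1.62 ± 0.46, 0.0232) and Tef (-0.87 ± 0.26, 0.0292). None of the 14 was called in the other comparisons. Of 9 reporter genes of such factors, 3 rose with MD in vehicle-treated mice, Cyp3a11 (1.67 ± 0.19, 1.22e-05), Gclc (0.91 ± 0.13, 0.000151) and Cyp4a10 (2.24 ± 0.56, 0.0108). With PE on CD, Gclc (0.72 ± 0.13, 0.00512) and Cyp4a10 (2.45 ± 0.56, 0.0191) rose, and in MD + PE against CD + PE Cyp3a11 (1.54 ± 0.18, 1.43e-05) and Cyp2b10 (2.90 ± 0.76, 0.0254). Cyp2b10 rested on few counts, with means of 0.219 CPM in CD + PE and 1.70 in MD + PE. Those of Cyp3a11 were 1011 and 2938 CPM.

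Other features of the livers moved with these groups. A clock score, the mean log2 level of activator genes such as Bmal1 minus that of output genes such as Dbp, ran from -4.52 to -3.01 in CD + Veh and -2.93 to 0.714 in CD + PE, with -2.02 to 0.0639 for MD + Veh and -1.83 to -0.160 for MD + PE. With this score as a covariate, the MD calls of Ugt2b1 (log2 0.92, edgeR adjusted p = 0.0693), Ugt3a2 (0.69, 0.0938) and Ugt2b35 (0.25, 0.599) were lost, while those of Ugt1a5 and Sult1e1 held. Without the score the estimates were 0.90 for Ugt2b1, 0.76 for Ugt3a2 and 0.44 for Ugt2b35. The score did not overlap between CD + Veh and MD + Veh, so score and diet cannot be told apart in that comparison. Of 7 pericentral hepatocyte markers, 4 rose with MD in vehicle-treated mice and 1 with PE on CD, and none was called in the other 2 pairwise comparisons. Of 7 periportal markers, 3 fell with MD in vehicle-treated mice and 2, Ass1 and Gls2, in each of the other 3. Ass1 fell by 0.39 (log2) with MD in vehicle-treated mice, by 0.95 with PE on MD and by 0.79 with MD under PE. The falls of Gls2 were 0.56, 0.79 and 0.93. With PE on CD, Ass1 fell by 0.56 and Gls2 by 0.42, and the Ugt1a5 difference was -0.62 ± 0.31 (log2, SE), not called. With PE on MD, mean Hsd17b13 went from 437 to 602 CPM and Pck1 from 1559 to 1739, while Sds, Hal and Cyp2f2 had lower means. Centred on group means, log2 CPM of Ugt1a5 had r = -0.24 with Ass1 and -0.50 with Gls2 over the 19 libraries. The listed genes outside the periportal markers that were correlated with it ran from -0.46 (Dbp) to 0.41 (Gclc). The other periportal markers were not correlated with it. Of 6 hepatocyte markers, 2 fell with MD in vehicle-treated mice and 3 in MD + PE against CD + PE. Of 8 male-biased liver genes, 2 rose with MD in vehicle-treated mice and 1 with PE on CD. Of 8 female-biased genes outside the Sult family, 1 passed the filter and was not called, and none of 5 Kupffer cell markers was called. The part of zonation, sex-biased expression or cell makeup in the members' values was not tested.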

How the data were processed

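Poly(A) RNA was sequenced from 19 liver libraries. The authors trimmed reads with fastp 0.23.4, quantified transcripts of GRCm39 with Salmon 1.10.3 and deposited expected counts summed to genes, held as whole numbers and not normalized between libraries. Groups came from the sample labels, and the dose and ages from the study's methods. Tests used edgeR 4.0.16 under R 4.3.3: filterByExpr, TMM, 1 coefficient per group over all libraries, quasi-likelihood test, Benjamini-Hochberg adjustment. CPM used effective library sizes. Levels were divided by the canonical transcript length of GENCODE vM39. The members and all gene lists were chosen with earlier results of these data known. Named genes were every called member and the highest member of each subfamily, the rest being given by range. The library in question for Sult1c2, the symbols just outside the threshold and the epithelial markers were named after their values were seen. Alternatives were RLE scaling, DESeq2 1.42.0, other filters, no fold minimum, 2-group fits, covariates, thinning to equal depth and leaving out libraries. Leaving out MD + Veh replicate 1 and MD + PE replicate 2 together was chosen after seeing the data. The procedure was tested on simulated counts. Of 27 pairs with the same replicate number, 7 had a residual correlation above 0.1 (median 0.0467), so numbers were not treated as pairs. No within-group pair of libraries had more than 1.85% of its counted genes identical.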

Additional observations from a re-analysis of the deposited data

Results flagged for a closer look

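In 4 of 57 group-and-gene sets of named members, 1 library lay farther from the rest than Dixon's test allows at its 95% level, which chance alone gives in about 1 of 20 groups. Ugt1a5 was at 208 CPM in CD + Veh replicate 4, against 90.8 to 102 in the other 3 libraries. Sult1a1 was at 161 CPM in MD + PE replicate 5, against 143 to 147 in the other 4. Sult1e1 was at 0.988 CPM in MD + PE replicate 5, from 11 counts, against 0.206 to 0.406. Sult6b2 was at 13.2 CPM in MD + PE replicate 2, against at most 0.0869 in the other libraries. It met the 1 CPM rule through that library alone. The rule therefore favoured its flag, which cannot be set against the chance rate.

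Signal above every CD + Veh library also appeared in symbols that were not tested. Besides Sult6b2, at 13.2 CPM, Sult2b1 was at 2.61 CPM in MD + PE replicate 2, with at most 0.332 elsewhere. Ugt1a2 was at 1.78 CPM in CD + PE replicate 5, from 18 counts, with 0.877 in the next library, and 75.9% of the 31-base words of its transcript are shared with Ugt1a5.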

How the results depend on the processing

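Member counts here lack the share of all genes called in each setting. They are therefore not read as changes particular to the members. The number of members called with PE on CD, 1 as reported, was 3 with DESeq2 and 3 in the 2-group fit, 2 with a replicate block, 2 after thinning to equal depth, and 0 with library number, up to 45 against 46 and above, as a covariate. All CD + Veh libraries lay before that split and all CD + PE libraries after it, so it cannot be told from PE on CD. The count with PE on CD was 1 to 2 when single libraries were left out, with 2 without MD + PE replicate 3, 4 or 5. With MD in vehicle-treated mice, 5 as reported, it was 2 with the clock score as a covariate and 4 to 7 without single libraries. With PE on MD, 2 as reported, it was 1 with DESeq2, 1 without a filter on low counts, 1 in the 2-group fit, 1 without MD + Veh replicate 1 and MD + PE replicate 2 together, and 0 with that split of library numbers as a covariate. It was 1 to 3 without single libraries, with 1 without MD + Veh replicate 1 or 3 or MD + PE replicate 1, 2, 3 or 4. With MD in PE-treated mice, 3 as reported, it was 6 with DESeq2 and 2 to 5 without single libraries, with 5 without MD + PE replicate 4. DESeq2 gave no adjusted p for Sult1e1 with PE on MD. The interaction count stayed at 0 in all settings run. Replicate numbers did not pair the libraries, and the block ended 1 member's call, that of Sult1e1 in MD + PE against CD + PE (log2 2.61, edgeR adjusted p = 0.0617), and added Ugt3a2 with PE on CD (0.49, 0.0449). No log2 fold change of a call reported changed sign, and the cause of the lost calls was not tested. RLE scaling moved the median of all genes by at most 0.0188 (log2). Low counts limit Sult1e1, Ugt1a10 and Ugt2b37, and Cyp2b10 outside the members.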
